A study of Rattus norvegicus with 65 samples.

Results

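The genes described here are 8 rat genes of copper and zinc handling: Slc31a1, Slc31a2, Atp7a, Atox1, Ccs, Mt1, Mtf1 and Slc30a1. They were chosen by symbol, as carriers of copper and zinc, a metallothionein and the regulator of metallothionein, and all 8 were found among the 14554 genes of the table. The choice was made with earlier results of these data known, in which Slc31a1 had one of the 5 largest loadings on the principal component that set Dox apart. For this reason the values of Slc31a1 in Dox are given as a description with no test, and nothing is read from them.

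Primary cardiomyocytes from the hearts of newborn rats were cultured, starved of serum overnight and exposed for 6 or 24 h to a drug or to its DMSO vehicle. The drugs were 10 mM 5-fluorouracil (5FU, a pyrimidine analog), 2.5 mM acetaminophen (Ace, a pain reliever) and 1.25 uM doxorubicin (Dox, an anthracycline that binds DNA). The vehicle of 5FU was 1% DMSO (DMSO1), and Ace and Dox shared 0.25% DMSO (DMSO2), so that values in Ace and Dox rest on the same control libraries. PolyA RNA was sequenced from 65 libraries in 10 groups: at 6 h DMSO1 n = 6, 5FU n = 6, DMSO2 n = 7, Ace n = 6 and Dox n = 7, and at 24 h DMSO1 n = 6, 5FU n = 6, DMSO2 n = 7, Ace n = 7 and Dox n = 7. The hearts of several litters gave 1 pool of cells, from which every culture was plated. Libraries of a group thus stand for parallel wells, and an FDR measures the spread between wells rather than between animals. The strain was not given in the sources used here.

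Libraries held between 14332827 and 25738297 estimated counts, and no member was at 0 in any library. Levels are CPM, the counts scaled to a common library size with TMM factors (trimmed mean of M values), and differences are log2 fold changes. Those were tested with the quasi-likelihood test of edgeR, and a gene was called at a false discovery rate (FDR) below 0.01 over all 14554 genes. Library 1 of 5FU at 6 h, library 7 of Dox at 24 h, library 1 of DMSO1 at 24 h and library 4 of Dox at 6 h lay farthest from their own groups. Cardiomyocyte markers were high throughout, with a summed level over 7 of 8 listed genes of 32343 to 43910 CPM in DMSO2 at 24 h, but 8470 to 10954 CPM in Dox at 24 h. In 5FU at 24 h the sum was 20339 to 23083 CPM, against 28709 to 36310 CPM in DMSO1. The cultures also held RNA of other cells, since 7 fibroblast markers summed to 14886 to 18695 CPM in DMSO2 at 24 h.

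Copper enters cells through the transporter Slc31a1, is handed by small chaperones to its target enzymes, and leaves through copper-pumping ATPases. Heart muscle, rich in mitochondria, needs copper for cytochrome c oxidase. Free zinc is kept low by metallothioneins, which bind it, and by the exporter Slc30a1. The transcription factor Mtf1 senses zinc, binds metal response elements in promoters and switches on metallothionein genes and Slc30a1.

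The pattern of the 8 genes differed between drugs. Mt1 and Slc30a1, both known targets of Mtf1, were higher in 5FU at both times and, by less, in Ace. In Dox they went opposite ways: Slc30a1 was 8.78-fold higher at 24 h while Mt1 was 6.76-fold lower. Slc31a2 was well above its control in Dox, and so, as a description, was Slc31a1, whereas neither passed the test in 5FU or Ace. Because this is RNA of whole cultures, fewer cells of a type and less RNA per cell cannot be told apart. In separate cultures, the paper found significantly more cell death than in the control for Dox at the later time. It found no significant rise for the other drugs at their chosen doses, and none for any drug at the early time. The part of cell death in the changes in Dox was not tested.

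**Figure D1:**
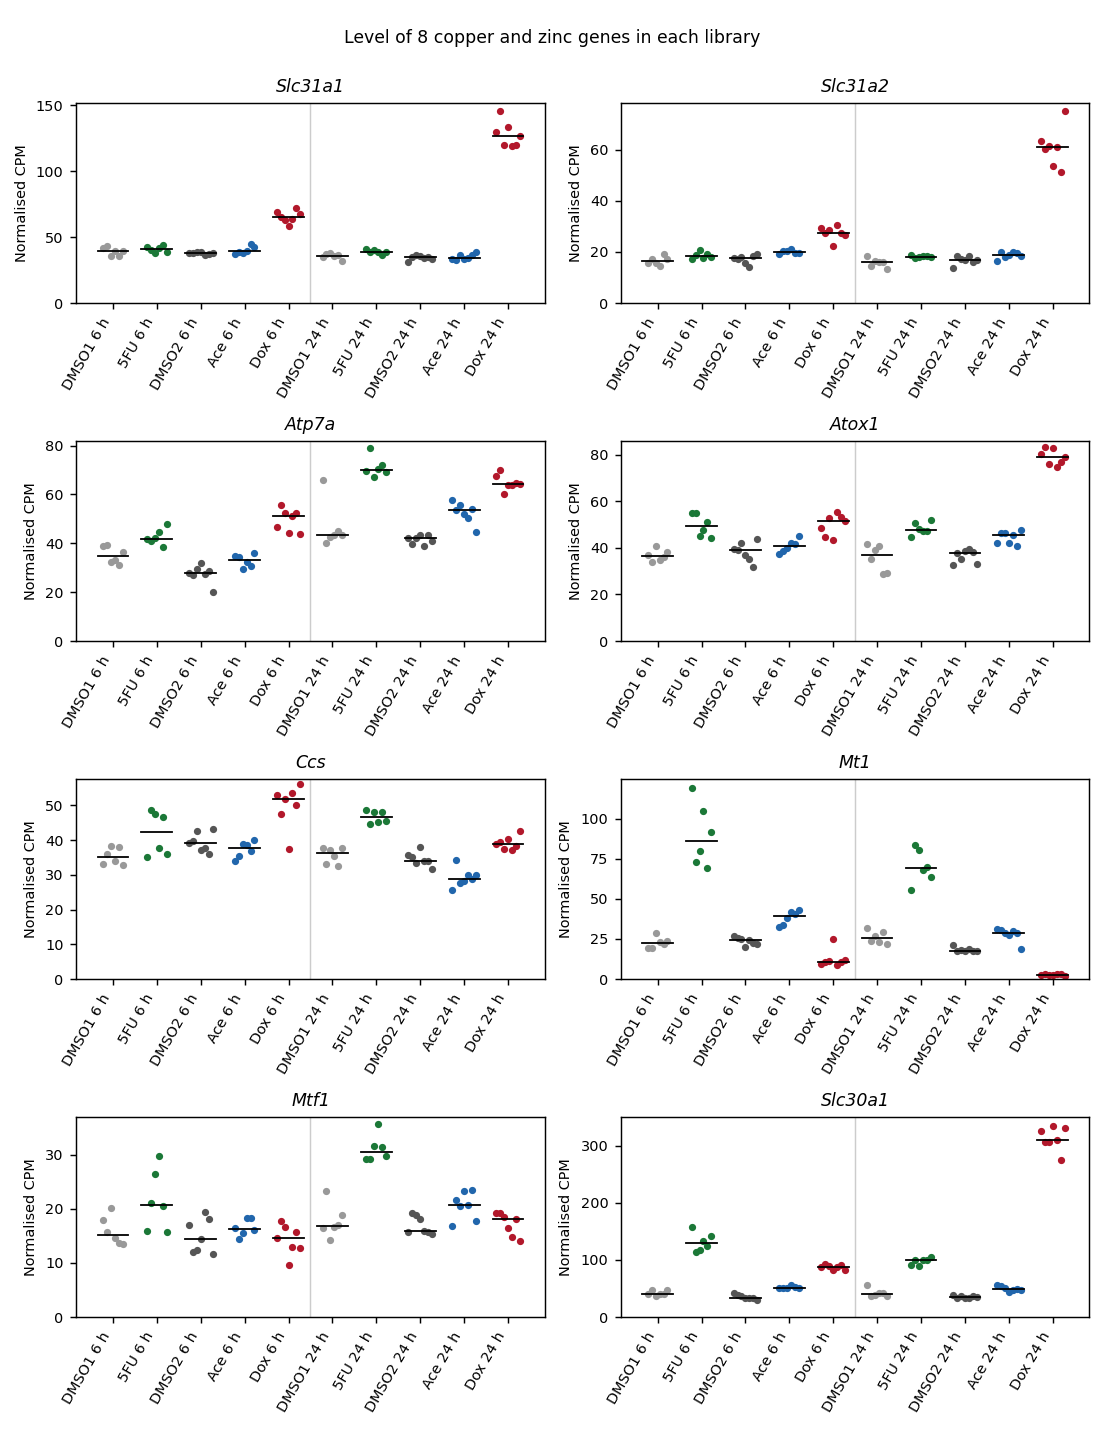
Level of each of the 8 genes in every library, as normalised CPM on a linear axis from 0, for the 10 groups (6 h left and 24 h right of the grey line). Points are libraries and black bars are group medians. Slc30a1 rises to a median of 310 CPM in Dox at 24 h, where Mt1 has a median of 2.71 CPM.

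Over the 8 genes, 6 were higher and 0 lower in 5FU at 6 h, where 23.4% of all genes were higher and 24.5% lower. At 24 h of 5FU the count was again 6 higher and 0 lower, against 28% and 27.8% of all genes. Ace at 6 h had 3 members higher and 0 lower (16.5% and 15.2% of all genes), and at 24 h 4 higher and 1 lower (18.2% and 19.1%). In Dox 6 were higher and 1 lower at 6 h (31.5% and 32.7% of all genes) and 6 higher and 1 lower at 24 h (40.4% and 41%), counts that include Slc31a1 and from which nothing is read. The median log2 fold change of the 8 genes was 0.35 and 0.52 in 5FU, 0.18 and 0.28 in Ace, and 0.53 and 0.88 in Dox at 6 and 24 h, where the median of all genes lay between -0.01 and 0.00. The medians in Dox also include Slc31a1, and nothing is read from them.

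**Figure D2:**
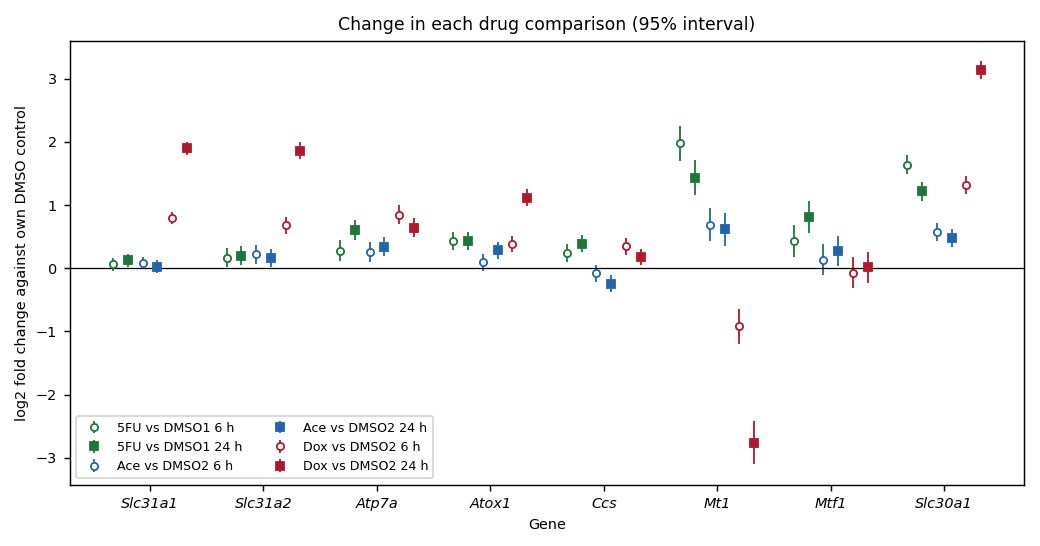
Log2 fold change of each gene against its own DMSO control in the 6 drug comparisons, with 95% intervals from the edgeR fit; open circles are 6 h and filled squares 24 h. Mt1 is above 0 in 5FU and Ace and falls to -2.76 in Dox at 24 h, while Slc30a1 is above 0 in all 6. The points of Slc31a1 in Dox are a description only.

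All values here are RNA levels, and metals, transporter proteins and transport were not measured in these libraries. Slc31a1 (Entrez gene 171135), also known as Ctr1, encodes the high-affinity copper importer of the plasma membrane. At 6 h it stood at 36.4, 38 and 38.5 CPM (lowest, median and highest library) in DMSO2 and 58.7, 64.9 and 72 CPM in Dox. At 24 h DMSO2 gave 31.3, 35.1 and 36 CPM and Dox 119, 127 and 146 CPM. Every Dox library was therefore above every control library at both times, with the fitted level 1.73 times the control at 6 h and 3.72 times at 24 h, given here without a test. In the other 8 groups the libraries lay between 31.3 and 44.7 CPM, and neighbouring groups in the order of medians overlapped. The change in 5FU was 0.06 ± 0.05 (SE) at 6 h and 0.13 ± 0.05 at 24 h, with 95% intervals of -0.04 to 0.16 and 0.02 to 0.23 and edgeR FDR of 0.314 and 0.0318. Without library 5 of 5FU at 24 h the second of these was called (log2 fold change 0.16, edgeR FDR = 0.00848). In Ace the change was 0.08 ± 0.05 at 6 h and 0.03 ± 0.05 at 24 h, with 95% intervals of -0.02 to 0.18 and -0.07 to 0.12 and edgeR FDR of 0.188 and 0.681. 

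In the RefSeq annotation of the rat genome build GRCr8, Slc31a1 and Slc31a2 lie on chromosome 5 with 1 protein-coding gene, Fkbp15, between them, and Fkbp15 overlaps Slc31a1 by 49 bases. The counting by kallisto under default settings does not use strand. That counting used an Ensembl transcriptome, in which the overlap was not checked, and sharing of reads between Slc31a1 and Fkbp15 was not tested. Fkbp15 had 30.8, 34.3 and 38.3 CPM in DMSO2 and 37.9, 41 and 44.6 CPM in Dox at 24 h (log2 fold change 0.27 ± 0.05, SE, edgeR FDR = 1.22e-06), and at 6 h of Dox it fell (log2 fold change -0.29 ± 0.05, SE, edgeR FDR = 3.73e-07).

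Slc31a2 (Entrez gene 298091), or Ctr2, is the related protein of endosomes and lysosomes that takes part in copper storage and release. It stood at 14, 17.6 and 19.3 CPM in DMSO2 and 22.3, 27.6 and 30.5 CPM in Dox at 6 h (log2 fold change 0.68 ± 0.07, SE, edgeR FDR = 3.08e-13). By 24 h the levels were 13.6, 17 and 18.3 CPM in DMSO2 and 51.4, 61.1 and 75.1 CPM in Dox (log2 fold change 1.86 ± 0.07, SE, edgeR FDR = 1.78e-34). Dox libraries did not overlap the controls at either time, and the change at 24 h exceeded that at 6 h by 1.19 ± 0.10 (SE, edgeR FDR = 5.34e-17). None of the 4 comparisons of 5FU and Ace called Slc31a2, with log2 fold changes between 0.16 and 0.22. In Ace at 6 h all libraries lay above all DMSO2 libraries, at 19.3, 19.8 and 21.1 CPM, yet the change of 0.22 ± 0.07 missed the threshold (edgeR FDR = 0.0125). It was called in that comparison without library 6 or library 7 of DMSO2 (edgeR FDR = 0.0097 and 0.00629) and, in 5FU at 24 h, without library 1 of DMSO1 (log2 fold change 0.25, edgeR FDR = 0.00563). It was also called in Ace at 6 h with the filterByExpr filter (edgeR FDR = 0.00957) or with only the compared groups in the fit (edgeR FDR = 0.00971), and in Ace at 24 h with library size as the only scaling (0.22, edgeR FDR = 0.00816).

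Atp7a (Entrez gene 24941), on chromosome X, encodes the ATPase that loads copper onto enzymes of the secretory pathway and pumps it out of the cell. The RNA of Atp7a was higher than in the vehicle in all 6 drug comparisons. In 5FU at 24 h it stood at 67.1, 70.2 and 78.9 CPM against 40.1, 43.4 and 66.1 CPM in DMSO1 (log2 fold change 0.61 ± 0.08, SE, edgeR FDR = 8.68e-10). The groups did not overlap, although library 1 of DMSO1, at 66.1 CPM, was far above the next one at 45.1 CPM. In Dox at 6 h the levels were 44, 51.2 and 55.7 CPM against 20.2, 27.7 and 32.1 CPM in DMSO2 (log2 fold change 0.85 ± 0.08, SE, edgeR FDR = 1.27e-15), and at 24 h 60.2, 64.5 and 70.1 CPM against 38.8, 42 and 43.5 CPM (log2 fold change 0.64 ± 0.07, SE, edgeR FDR = 4.22e-12). Ace at 24 h gave 44.8, 53.6 and 57.9 CPM (log2 fold change 0.34 ± 0.07, SE, edgeR FDR = 9.16e-05), again with no overlap. These are changes of 1.27 to 1.8 times.

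In the early comparisons of 5FU and Ace the libraries of Atp7a overlapped their controls. At 6 h 5FU stood at 38.6, 42 and 47.8 CPM against 31, 34.8 and 39.1 CPM in DMSO1 (log2 fold change 0.28 ± 0.08, SE, edgeR FDR = 0.00235). The call was lost without library 6 of 5FU (0.24, edgeR FDR = 0.0108) or library 5 of DMSO1 (0.25, edgeR FDR = 0.0104), and with library size as the only scaling (0.21, edgeR FDR = 0.0211). Ace at 6 h stood at 29.4, 33.3 and 36.2 CPM (log2 fold change 0.26 ± 0.08, SE, edgeR FDR = 0.00595), and that call was lost in 5 of 13 fits that left out 1 library: library 1, 2 or 6 of Ace and library 2 or 7 of DMSO2, with edgeR FDR between 0.0102 and 0.0323. It was also lost with library size as the only scaling (edgeR FDR = 0.015) and with only the compared groups in the fit (edgeR FDR = 0.0129). Atp7a was the one member that rose with time in the controls (log2 fold change 0.50 ± 0.06, SE, edgeR FDR = 2.34e-12).

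The copper chaperone Atox1 (Entrez gene 84355, chromosome 10) carries copper from the entry site to Atp7a and Atp7b. In Dox at 24 h it stood at 74.9, 78.9 and 83 CPM against 32.8, 37.8 and 39.4 CPM in DMSO2 (log2 fold change 1.11 ± 0.07, SE, edgeR FDR = 5.8e-24). The Dox libraries at 24 h lay above every library of the other 9 groups. At 6 h of Dox the levels were 43.5, 51.7 and 55.6 CPM against 31.6, 39.2 and 43.6 CPM (log2 fold change 0.38 ± 0.07, SE, edgeR FDR = 7.98e-07), with overlap, and the change at 24 h exceeded it by 0.73 ± 0.09 (SE, edgeR FDR = 3.58e-10). In 5FU Atox1 stood at 44.1, 49.5 and 55.1 CPM against 34, 36.6 and 40.9 CPM in DMSO1 at 6 h (log2 fold change 0.43 ± 0.07, SE, edgeR FDR = 6.46e-07). At 24 h the levels were 44.8, 47.6 and 52.1 CPM and 28.7, 37.1 and 41.8 CPM (log2 fold change 0.43 ± 0.07, SE, edgeR FDR = 5.13e-07). The groups did not overlap at either time, and the 2 changes differed by 0.00 ± 0.10 (SE), with a 95% interval of -0.20 to 0.21. Ace raised Atox1 at 24 h, to 40.9, 45.3 and 47.7 CPM (log2 fold change 0.28 ± 0.07, SE, edgeR FDR = 0.000315), while at 6 h it gave 0.09 ± 0.07 (SE, edgeR FDR = 0.304).

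Ccs (Entrez gene 84485, chromosome 1), the chaperone that delivers copper to the superoxide dismutase Sod1, was the member with calls in both directions outside Dox. In 5FU at 24 h it stood at 44.7, 46.7 and 48.7 CPM against 32.5, 36.3 and 37.8 CPM in DMSO1 (log2 fold change 0.39 ± 0.07, SE, edgeR FDR = 1.94e-06), with no overlap. In Ace at 24 h it fell to 25.7, 28.7 and 34.2 CPM against 31.7, 34 and 38 CPM in DMSO2 (log2 fold change -0.24 ± 0.07, SE, edgeR FDR = 0.00145), and the groups overlapped. The effect of Ace differed from that of 5FU by -0.63 ± 0.10 at 24 h (SE, edgeR FDR = 1.26e-07). The Ace call was lost without library 1 of Ace (-0.21, edgeR FDR = 0.0103) and with library size as the only scaling (-0.19, edgeR FDR = 0.024).

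In Dox at 6 h Ccs stood at 37.5, 51.9 and 56 CPM against 36, 39 and 43.1 CPM (log2 fold change 0.34 ± 0.06, SE, edgeR FDR = 2.96e-06), and with library size as the only scaling the change was 0.19 (edgeR FDR = 0.0117). At 24 h Dox gave 37.1, 38.9 and 42.7 CPM (log2 fold change 0.18 ± 0.07, SE, edgeR FDR = 0.00864), a call lost in 7 of 14 fits that left out 1 library: library 2, 3, 5, 6 or 7 of DMSO2 and library 1 or 7 of Dox, with edgeR FDR between 0.0108 and 0.0243. The call in 5FU at 6 h also depended on single libraries, in 3 of 12 such fits. There Ccs stood at 35.1, 42.2 and 48.6 CPM against 32.9, 35 and 38.3 CPM (log2 fold change 0.24 ± 0.07, SE, edgeR FDR = 0.00204), and the call was lost without library 2, 3 or 5 of 5FU (edgeR FDR = 0.0164, 0.0121 and 0.0118), with library size as the only scaling (edgeR FDR = 0.0453) and with only the compared groups in the fit (edgeR FDR = 0.0361).

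Mt1 (Entrez gene 24567, chromosome 19) encodes a small metallothionein, rich in cysteine, that binds zinc and copper. In 5FU it stood at 69.4, 85.8 and 119 CPM against 19.4, 22.3 and 28.9 CPM in DMSO1 at 6 h (log2 fold change 1.98 ± 0.14, SE, edgeR FDR = 2.79e-19). At 24 h the levels were 55.5, 68.9 and 83.7 CPM against 21.9, 25.3 and 31.8 CPM (log2 fold change 1.43 ± 0.14, SE, edgeR FDR = 5.83e-14). Neither pair of groups overlapped, and the fitted folds were 3.94 and 2.69. Library 1 of 5FU was the highest at 6 h, and without it the change was 1.88 (edgeR FDR = 3.82e-18). Without library 1 of DMSO1 the change at 24 h was 1.495 (edgeR FDR = 7.65e-14). In Ace at 6 h Mt1 stood at 32.4, 39.2 and 42.9 CPM against 19.8, 24.1 and 27 CPM in DMSO2 (log2 fold change 0.69 ± 0.13, SE, edgeR FDR = 1.93e-05), with no overlap. At 24 h Ace gave 18.6, 28.8 and 31.4 CPM against 17.3, 17.6 and 21.1 CPM (log2 fold change 0.61 ± 0.13, SE, edgeR FDR = 8.69e-05), and the groups overlapped because library 7 of Ace, at 18.6 CPM, lay among the controls. At 24 h the effect of Ace was smaller than that of 5FU, by -0.81 ± 0.19 on the log2 scale (SE, edgeR FDR = 0.000295).

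In Dox Mt1 fell. At 6 h it stood at 8.66, 10.8 and 24.7 CPM (log2 fold change -0.92 ± 0.14, SE, edgeR FDR = 2.83e-08), where library 4, at 24.7 CPM, was at the level of the controls and the other 6 libraries were at or below 11.8 CPM. Without library 4 the change was -1.18 (edgeR FDR = 1.43e-13). At 24 h all 7 Dox libraries lay between 2.06 and 3.23 CPM, from 44 to 57 counts each (log2 fold change -2.76 ± 0.17, SE, edgeR FDR = 5.78e-23). These were the lowest levels of Mt1 in the 10 groups, overlapped by no other group, and the fall at 24 h exceeded that at 6 h by -1.84 ± 0.23 (SE, edgeR FDR = 8.91e-11). Counts of Mt1 are uncertain as far as they may hold reads of near-identical metallothionein copies and pseudogenes of the rat genome.

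Slc30a1 (Entrez gene 58976, chromosome 13), or ZnT1, exports zinc across the plasma membrane. Its largest change was in Dox at 24 h, with 275, 310 and 335 CPM against 33.4, 35.4 and 38.6 CPM in DMSO2 (log2 fold change 3.13 ± 0.07, SE, edgeR FDR = 1.28e-45). At 6 h Dox stood at 81.5, 87.4 and 93.7 CPM against 29.9, 33.7 and 41.6 CPM (log2 fold change 1.32 ± 0.07, SE, edgeR FDR = 9.87e-26). The lowest Dox library at 24 h was thus above the highest library of every other group, and the 2 changes differed by 1.82 ± 0.10 (SE, edgeR FDR = 2.46e-25).

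In 5FU the order over time was the other way. Slc30a1 stood at 114, 129 and 157 CPM against 37.3, 40.7 and 47 CPM in DMSO1 at 6 h (log2 fold change 1.64 ± 0.07, SE, edgeR FDR = 1.29e-27). At 24 h it stood at 89.8, 99.6 and 105 CPM against 36.6, 40.04 and 56.3 CPM (log2 fold change 1.22 ± 0.07, SE, edgeR FDR = 8.16e-22), where the effect minus that at 6 h was -0.42 ± 0.10 (SE, edgeR FDR = 0.000522). Library 1 of DMSO1 at 24 h was high, at 56.3 CPM, and without it the change at 24 h was 1.32 (edgeR FDR = 7.42e-25) and the difference over time -0.32 (edgeR FDR = 0.00324). Without library 1 of 5FU at 6 h, the highest of its group, the change at 6 h was 1.58 (edgeR FDR = 1.13e-26). Ace raised it less, to 50.8, 51.5 and 55.2 CPM at 6 h (log2 fold change 0.57 ± 0.07, SE, edgeR FDR = 1.94e-09) and 43.9, 48.6 and 56.4 CPM at 24 h (log2 fold change 0.48 ± 0.07, SE, edgeR FDR = 3.7e-08). In all 6 drug comparisons the drug libraries lay wholly above their controls. The effect of Ace at 24 h was below that of 5FU by -0.73 ± 0.10 on the log2 scale (SE, edgeR FDR = 1.67e-08), and that of Dox above it by 1.92 ± 0.10 (SE, edgeR FDR = 4.34e-26).

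**Figure D3:**
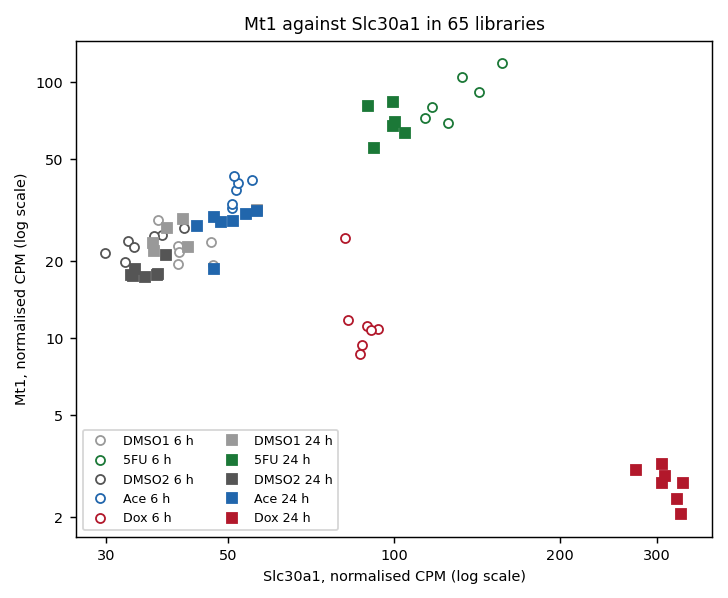
Level of Mt1 against Slc30a1 in each of the 65 libraries, as normalised CPM on log axes; colours are treatments, open circles 6 h and filled squares 24 h. The 5FU libraries lie up and to the right of the controls, most Ace libraries lie between, with those of 24 h reaching into the controls, and the Dox libraries at 24 h lie at the lower right, at 2.06 to 3.23 CPM of Mt1 and 275 to 335 CPM of Slc30a1.

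Mtf1 (Entrez gene 362591, chromosome 5), the zinc-sensing transcription factor, changed in RNA level in 5FU. At 24 h it stood at 29.2, 30.6 and 35.7 CPM against 14.3, 16.8 and 23.3 CPM in DMSO1 (log2 fold change 0.81 ± 0.13, SE, edgeR FDR = 1.11e-07), with no overlap. At 6 h the levels were 15.8, 20.7 and 29.8 CPM against 13.5, 15.2 and 20.1 CPM (log2 fold change 0.43 ± 0.13, SE, edgeR FDR = 0.00293), with overlap. That early call was lost without library 3 or 4 of 5FU (edgeR FDR = 0.0149 and 0.0317) or library 5 or 6 of DMSO1 (edgeR FDR = 0.0103 and 0.0115), with library size as the only scaling (edgeR FDR = 0.0194) and with only the compared groups in the fit (edgeR FDR = 0.0308). In Dox, where Mt1 and Slc30a1 moved apart, the change of Mtf1 was -0.07 ± 0.12 at 6 h and 0.01 ± 0.12 at 24 h (SE, 95% intervals -0.31 to 0.18 and -0.23 to 0.26, edgeR FDR = 0.616 and 0.91). In Ace it was 0.14 ± 0.13 and 0.28 ± 0.12 (SE, edgeR FDR = 0.404 and 0.0495), and the second was called with only the compared groups in the fit (edgeR FDR = 0.00474).

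Of the other metallothioneins in the table, Mt2A and Mt3, the first was called in the same direction as Mt1 in 4 comparisons. Mt2A stood at 39.2, 43.2 and 65.4 CPM in 5FU against 13, 19 and 21 CPM in DMSO1 at 6 h (log2 fold change 1.38 ± 0.13, SE, edgeR FDR = 2.95e-14). At 24 h it stood at 42.2, 46.2 and 54.2 CPM against 19.2, 20.2 and 24.1 CPM (log2 fold change 1.17 ± 0.13, SE, edgeR FDR = 6.46e-12). In Dox at 24 h it fell to 6.21, 6.69 and 7.53 CPM against 14.9, 16.4 and 18.9 CPM in DMSO2 (log2 fold change -1.30 ± 0.14, SE, edgeR FDR = 2.53e-13). Groups did not overlap in these 3 comparisons. In Ace at 24 h Mt2A was higher, like Mt1, with overlap (log2 fold change 0.60 ± 0.12, SE, edgeR FDR = 3.78e-05), in Ace at 6 h the change was 0.31 ± 0.12 (SE, edgeR FDR = 0.0419), and in Dox at 6 h it was -0.21 ± 0.12 (SE, edgeR FDR = 0.129). As for Mt1, the highest of the Dox libraries at 6 h was library 4. Mt3, at or below 3.46 CPM in every library, fell in Dox at 6 h (-0.95 ± 0.26, SE, edgeR FDR = 0.00101) and at 24 h (-0.87 ± 0.26, SE, edgeR FDR = 0.00203). At 24 h it stood at 0.586, 0.923 and 3.07 CPM in Dox and 2.09, 2.30 and 2.79 CPM in DMSO2, and library 7 of Dox, at 3.07 CPM, lay above every control library.

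The promoters of Mt1, Mt2A and Slc30a1 are shown because these 3 genes rose in 5FU, while in Dox the first pair fell at 24 h and the third rose. Each is the 250 bases before the annotated start, 5′ to 3′ on the strand of the gene, from RefSeq on build GRCr8, and capitals mark the core of the metal response element. The core was searched on both strands as TGCACNC or TGCGCNC, so a match on the other strand appears as its reverse complement, and no match overlapped another.
Mt1 (chr19:10832976-10833225, minus strand): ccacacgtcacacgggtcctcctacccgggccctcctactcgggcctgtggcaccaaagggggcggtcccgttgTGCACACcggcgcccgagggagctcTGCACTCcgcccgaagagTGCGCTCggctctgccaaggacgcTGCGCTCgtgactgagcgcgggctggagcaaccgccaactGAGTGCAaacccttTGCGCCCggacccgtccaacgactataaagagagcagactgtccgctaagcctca
Mt2A (chr19:10838709-10838958, minus strand): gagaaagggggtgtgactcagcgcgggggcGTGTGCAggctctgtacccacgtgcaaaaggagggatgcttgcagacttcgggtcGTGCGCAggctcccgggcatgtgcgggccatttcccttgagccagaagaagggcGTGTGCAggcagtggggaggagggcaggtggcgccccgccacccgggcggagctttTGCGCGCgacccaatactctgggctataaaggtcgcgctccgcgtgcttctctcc
Slc30a1 (chr13:106021769-106022018, plus strand): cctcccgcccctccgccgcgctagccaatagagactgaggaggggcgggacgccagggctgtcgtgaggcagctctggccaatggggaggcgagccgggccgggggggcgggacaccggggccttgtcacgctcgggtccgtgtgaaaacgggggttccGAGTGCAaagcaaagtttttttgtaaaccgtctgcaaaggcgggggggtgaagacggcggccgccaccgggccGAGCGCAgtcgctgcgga
The stretch before Mt1 held 6 cores, between bases -176 and -49 from the start, that before Mt2A 4 and that before Slc30a1 2, at -91 and -18. Among 33469 annotated promoters of the same length, from 27457 genes, 20.6% held at least 1 core, 4.9% at least 2, 0.266% at least 4 and 0.0269% at least 6. The other members held 2 (Mtf1), 1 (Slc31a2 and Ccs) or 0 (Slc31a1, Atp7a and Atox1). A match is a description of letters and not evidence of a bound site, and a count of 0 holds only for the 250 bases searched.

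The vehicles were compared with each other in the same way. DMSO1 against DMSO2 at 6 h called 2 of 8 members (16.5% of all genes), Atp7a (log2 fold change 0.35 ± 0.08, SE, edgeR FDR = 0.000476) and Slc30a1 (log2 fold change 0.27 ± 0.07, SE, edgeR FDR = 0.00429), both higher in 1% DMSO. The call of Slc30a1 was lost without library 2 or 6 of DMSO1 or library 4, 5, 6 or 7 of DMSO2 (edgeR FDR between 0.011 and 0.0206), and both calls were lost with only the compared groups in the fit. At 24 h 0 of 8 were called (0.433% of all genes) by edgeR and 0 by DESeq2, with 3 at an unadjusted p below 0.05, as were 16.3% of all genes. These were Atp7a, Slc30a1 and Mt1, and Mt1 was higher in every DMSO1 library than in every DMSO2 library (log2 fold change 0.52 ± 0.14, SE, edgeR FDR = 0.0266). From 6 to 24 h of vehicle 2 of 8 members were called (64.6% of all genes), Atp7a, higher, and Slc31a1, lower (log2 fold change -0.14 ± 0.04, SE, edgeR FDR = 0.000439).

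Tests of the difference between effects followed the same genes. The 5FU effect at 24 h differed from that at 6 h in 1 of 8 members (39.5% of all genes), Slc30a1. Left out one at a time, 8 libraries added a call of Mt1 or Atp7a to it. Mt1, at -0.55 ± 0.19 (SE, edgeR FDR = 0.0142) with all libraries, was called without library 2 or 3 of 5FU at 24 h, library 2 or 5 of 5FU at 6 h or library 3 of DMSO1 at 6 h (-0.60 to -0.63, edgeR FDR between 0.0054 and 0.00969). Atp7a, at 0.33 ± 0.11 (SE, edgeR FDR = 0.012) with all libraries, was called without library 6 of 5FU at 6 h, library 3 or 5 of DMSO1 at 6 h (edgeR FDR between 0.00652 and 0.00866) or library 1 of DMSO1 at 24 h (0.45, edgeR FDR = 7.13e-05). The Ace effect changed with time in 0 of 8 members by edgeR, 0 by DESeq2 and 0 at an unadjusted p below 0.05 (11.6% of all genes by edgeR, and 32.4% at that unadjusted p). The Dox effect changed with time in 5 of 8 (64.8% of all genes), the 4 named above and Slc31a1, which is not read as a result.

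Between drugs at 24 h, the effects of Dox and 5FU differed in 6 of 8 members (71.1% of all genes), a count that includes Slc31a1, which is not read as a result. The vehicle was 1% DMSO for 5FU and 0.25% for Dox and Ace. An influence of vehicle strength on the response thus cannot be told apart from a difference between 5FU and the other drugs. Slc31a2, Atox1 and Slc30a1 were more raised in Dox, and Mt1 and Mtf1 lay -4.19 and -0.80 below 5FU on the log2 scale (edgeR FDR = 4.56e-26 and 4.76e-05). The effect of Dox on Atp7a differed from that of 5FU by 0.04 ± 0.11 (SE), with a 95% interval of -0.18 to 0.25. Ace and 5FU differed in 4 of 8 members (37.3% of all genes), Ccs, Mt1, Mtf1 and Slc30a1, all lower in Ace. Of these the difference in Mtf1 was -0.53 ± 0.17 (SE, edgeR FDR = 0.00863), a call lost in 15 of 26 fits that left out 1 library: library 1, 3, 4 or 5 of 5FU, 1, 3, 5 or 7 of Ace, 1, 3, 4 or 5 of DMSO1 and 2, 3 or 4 of DMSO2, with edgeR FDR between 0.0101 and 0.0223. Atp7a was added without library 1 of DMSO1 (-0.39, edgeR FDR = 0.000322). Dox against Ace directly, which share the vehicle, called 7 of 8 members (80.6% of all genes), again with Slc31a1 counted but not read. Of the other 6 Mt1 was lower in Dox.

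Among other genes that move copper inside the cell, 11 of 14 listed were in the table. In Dox at 24 h 3 of the 11 were higher and 7 lower, with a median log2 fold change of -0.42, against 5 and 4 at 6 h with a median of 0.14. Of all genes 40.4% were higher and 41% lower at 24 h, and 31.5% and 32.7% at 6 h. Steap3, an endosomal metalloreductase, rose to 97.1 to 127 CPM from 18.1 to 22 CPM at 24 h (log2 fold change 2.54 ± 0.07, SE, edgeR FDR = 3.25e-42). The genes of this list that were lower in Dox at both times were Cox19, which serves the assembly of cytochrome c oxidase (-0.66 and -1.53), Atp7b, the second copper-pumping ATPase (-0.88 and -1.10), Cutc (-0.59 and -1.06), and Xiap, an inhibitor of caspases (-0.46 and -0.35). The edgeR FDR was at most 4.04e-11 for the first 3 of these and at most 1.23e-06 for Xiap, which was named after its values were seen. Atp7b, at 5.29 to 6.80 CPM in Dox and 11.1 to 15 CPM in DMSO2 at 24 h, also fell in 5FU (-0.93 and -1.20) and Ace (-0.56 and -0.42, edgeR FDR at most 0.000416), and so moved opposite to Atp7a, which rose in the same 6 comparisons.

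In 5FU the same 11 genes split 3 higher and 3 lower at 6 h (median -0.17) and 2 and 5 at 24 h (median -0.13), where all genes split 23.4% and 24.5% at 6 h and 28% and 27.8% at 24 h. Sco1, which hands copper to cytochrome c oxidase, rose at both times (0.36 and 0.65, edgeR FDR at most 9.09e-08), and Steap4, another metalloreductase, fell at 24 h (log2 fold change -0.99 ± 0.14, SE, edgeR FDR = 5.17e-09). Ace had 1 higher and 3 lower at 6 h (median -0.01) and 3 and 4 at 24 h (median -0.04), against 16.5% and 15.2% of all genes at 6 h and 18.2% and 19.1% at 24 h. Steap4 fell in Ace at both times (-1.07 and -0.81, edgeR FDR at most 1.05e-07) and rose in Dox at 6 h (log2 fold change 1.38 ± 0.13, SE, edgeR FDR = 5.33e-15).

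Of 13 enzymes that carry copper, 7 were lower and 0 higher in 5FU at 24 h (median -0.46), where 27.8% of all genes were lower and 28% higher. In Ace at 24 h 8 were lower and 1 higher (median -0.42), against 19.1% and 18.2% of all genes. Lox, which crosslinks collagen and elastin, fell to 11.7 to 16.5 CPM from 22.6 to 54.4 CPM in 5FU (log2 fold change -1.68 ± 0.19, SE, edgeR FDR = 9.01e-12) and to 18.7 to 28.5 CPM from 44.5 to 64.3 CPM in Ace (log2 fold change -1.14 ± 0.17, SE, edgeR FDR = 3.31e-08). In those comparisons 7 of 7 fibroblast markers were lower, with sums of 5098 to 5767 CPM in 5FU against 9846 to 19715 CPM in DMSO1, and 7180 to 9202 CPM in Ace against 14886 to 18695 CPM in DMSO2. None of these markers was at 0, and their part in the fall of Lox was not tested. In Dox at 24 h 3 enzymes were higher and 6 lower (median -0.16), against 40.4% and 41% of all genes. Lox was higher in Dox at 24 h, with overlap (log2 fold change 0.53 ± 0.16, SE, edgeR FDR = 0.00164). At 6 h of Dox it was higher too (0.65, edgeR FDR = 0.000192). In Dox at 24 h 7 of 7 fibroblast markers were lower. Loxl4 rose to 46.3 to 75.5 CPM from 8.84 to 11.6 CPM (log2 fold change 2.54 ± 0.12, SE, edgeR FDR = 1.3e-29), and Heph, a copper-dependent ferroxidase, fell to 2.41 to 5.95 CPM from 12.5 to 15.4 CPM (log2 fold change -1.72 ± 0.13, SE, edgeR FDR = 2.17e-19). At 6 h the counts were 4 higher and 1 lower in 5FU (median -0.03), 0 and 4 in Ace (median -0.13), and 7 and 1 in Dox (median 0.30), against 23.4% and 24.5%, 16.5% and 15.2%, and 31.5% and 32.7% of all genes. Sod1, the client of Ccs, rose in 5FU at 6 h (log2 fold change 0.27 ± 0.06, SE, edgeR FDR = 7.09e-05) and in Ace at 24 h (log2 fold change 0.30 ± 0.05, SE, edgeR FDR = 6.72e-06).

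Fdx1 and the genes of protein lipoylation, through which excess copper is known to harm mitochondria, were given by a list of 9. Ace called 0 of them at 6 h (median 0.03) and 1 higher at 24 h (median -0.07), which was Pdha1. Of all genes in Ace 16.5% were higher and 15.2% lower at 6 h, and 18.2% and 19.1% at 24 h. In 5FU 4 were higher and 1 lower at 6 h (median 0.18) and 3 and 4 at 24 h (median -0.02), against 23.4% and 24.5% of all genes at 6 h and 28% and 27.8% at 24 h. In Dox 4 were higher and 2 lower at 6 h (median 0.07) and 1 and 6 at 24 h (median -0.25), against 31.5% and 32.7% of all genes at 6 h and 40.4% and 41% at 24 h. Dlat, a lipoylated subunit of pyruvate dehydrogenase, fell to 52.6 to 85.1 CPM from 204 to 224 CPM in Dox at 24 h (log2 fold change -1.56 ± 0.06, SE, edgeR FDR = 2.73e-34) but rose in 5FU at 24 h (log2 fold change 0.45 ± 0.06, SE, edgeR FDR = 2.31e-09). Fdx1 fell in Dox at 24 h, to 10.5 to 15.9 CPM from 25.6 to 31.3 CPM (log2 fold change -1.17 ± 0.11, SE, edgeR FDR = 1.12e-15). 
Markers of the cell types moved in Dox together with these genes. At 24 h 7 of 7 cardiomyocyte markers were lower, with the sums given above. Of the fibroblast markers 7 of 7 were lower (1892 to 4019 CPM in Dox against 14886 to 18695 CPM in DMSO2), and of the endothelial markers 5 of 5 (18.2 to 41.3 CPM against 232 to 303 CPM). Macrophage markers split 4 lower and 1 higher of 6 (29.5 to 39.7 CPM against 56.2 to 76 CPM), and 3 of 4 smooth muscle markers were higher (307 to 1579 CPM against 433 to 607 CPM). At 6 h 2 cardiomyocyte markers were lower and 3 higher, 5 fibroblast and 5 endothelial markers were lower, and 4 of 4 smooth muscle markers were higher. Of all genes in Dox 40.4% were higher and 41% lower at 24 h, and 31.5% and 32.7% at 6 h. In 5FU at 24 h 4 of 7 cardiomyocyte markers were lower and 1 higher, and 4 of 5 endothelial markers were lower and 0 higher. Of all genes 27.8% were lower and 28% higher there. In Ace at 24 h 7 of 7 fibroblast, 6 of 6 macrophage and 4 of 5 endothelial markers were lower. So were 2 of 7 cardiomyocyte and 2 of 4 smooth muscle markers, and 0 of any type were higher. Of all genes 19.1% were lower and 18.2% higher in Ace at 24 h. No marker was at 0 in a whole group. The part of these shifts in the changes of the 8 genes and of the lists in Dox, 5FU and Ace was not tested. Nor was that of cell death in Dox.

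The zinc transporters other than Slc30a1 moved in both directions. Of 8 tested zinc exporters of the Slc30 family, Dox changed 4 higher and 3 lower at 6 h (median 0.31) and 3 and 4 at 24 h (median -0.07), against 31.5% and 32.7% of all genes at 6 h and 40.4% and 41% at 24 h. Slc30a3, which loads zinc into vesicles, rose to 184 to 238 CPM from 26.5 to 30.6 CPM at 24 h (log2 fold change 2.89 ± 0.06, SE, edgeR FDR = 2.04e-46), after 0.93 ± 0.06 (SE, edgeR FDR = 8.18e-21) at 6 h. In 5FU the exporters split 1 higher and 1 lower at 6 h (median -0.17) and 2 and 4 at 24 h (median -0.24), and in Ace 2 and 1 at 6 h (median 0.10) and 2 and 1 at 24 h (median 0.00). All genes split 23.4% and 24.5%, 28% and 27.8%, 16.5% and 15.2%, and 18.2% and 19.1% in these 4 comparisons. Slc30a7, which serves the Golgi, fell in 5FU at both times (-0.64 and -0.59, edgeR FDR at most 7.04e-10). No exporter of this list moved in 5FU by as much as Slc30a1 did, whose log2 fold changes were 1.64 and 1.22.

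Of 13 tested zinc importers of the Slc39 family, Dox changed 3 higher and 6 lower at 6 h (median -0.12) and 3 and 8 at 24 h (median -0.40), against 31.5% and 32.7% of all genes at 6 h and 40.4% and 41% at 24 h. Slc39a14, a zinc and iron importer of the plasma membrane, fell to 26.5 to 42 CPM from 109 to 146 CPM at 24 h (log2 fold change -1.80 ± 0.07, SE, edgeR FDR = 2.85e-33) and by a log2 fold change of -1.45 at 6 h (edgeR FDR = 2.37e-27). Slc39a6 rose to 129 to 151 CPM from 30.5 to 33.6 CPM at 24 h (log2 fold change 2.10 ± 0.07, SE, edgeR FDR = 1.93e-37) and by 1.20 at 6 h (edgeR FDR = 2.56e-24). In 5FU 1 importer was higher and 7 lower at 6 h (median -0.18) and 2 and 6 at 24 h (median -0.51), and in Ace 1 and 2 at 6 h (median -0.13) and 1 and 6 at 24 h (median -0.17). All genes split 23.4% and 24.5%, 28% and 27.8%, 16.5% and 15.2%, and 18.2% and 19.1% there. Slc39a3 rose in 5FU and Ace at both times (between 0.21 and 0.43, edgeR FDR at most 0.0056) and fell in Dox at both (-1.36 and -0.98, edgeR FDR at most 4.21e-21), the same directions as Mt1.

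**Figure D4:**
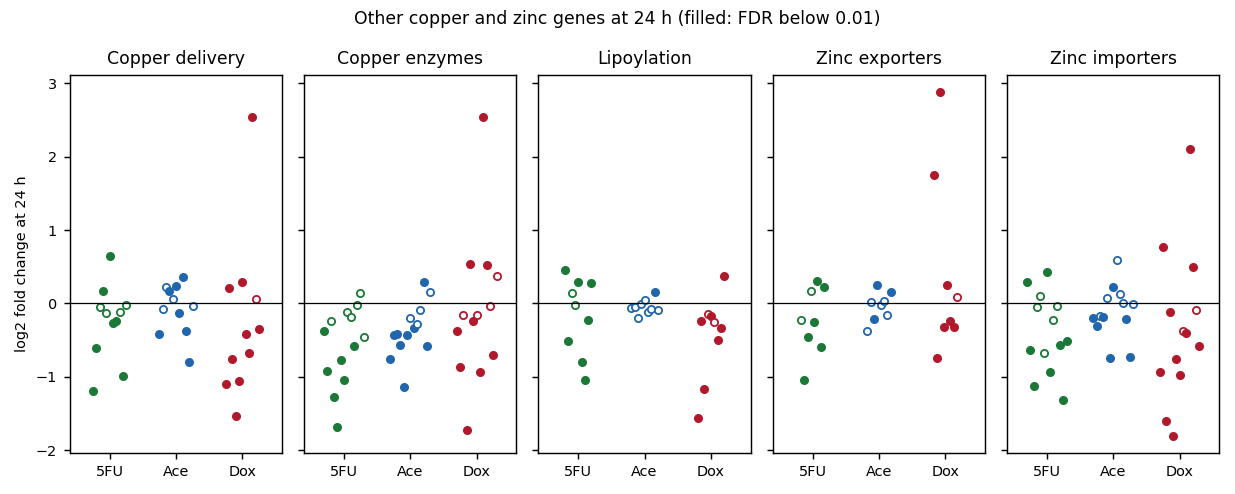
Log2 fold change at 24 h of the genes of 5 lists in 5FU, Ace and Dox, each against its own DMSO control; each point is a gene, filled where the edgeR FDR was below 0.01. The Dox points spread most widely, from -1.80 (Slc39a14) to 2.89 (Slc30a3).

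The genes whose log2 level was most like that of a member over the 10 group means were found among 10508 named genes whose counts averaged 100 or more. For Slc31a1 these were Nop16 (Pearson r = 0.9936), Pi4k2b (0.9913) and Mafa (0.9913). Slc30a1 was followed by Socs4 (0.9911), Wdr20 (0.9884) and Znfx1 (0.9799), each higher in Dox at 24 h, at log2 fold changes of 2.08, 1.75 and 1.39. For Mt1 they were Ccdc127 (0.9805), Mt2A (0.9779) and Traf3ip1 (0.9748). The 10 points share libraries and controls and include the high levels of Dox, so these values describe likeness only. Between members, Slc31a1 and Slc31a2 had r = 0.983, Atox1 and Slc30a1 0.962, and Mt1 and Slc30a1 -0.366.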

How the data were processed

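PolyA libraries of 65 cultures were sequenced in pairs. The deposited values are estimated counts per gene that the authors made with kallisto 0.46.0 under default settings on the Ensembl rat transcriptome and summed to Entrez genes with tximport. Genes with counts below 10 throughout were removed by the authors. The values are unscaled and whole, so none needed rounding. Column names gave the group and no replicate number, so libraries are numbered in column order within a group as names only. Symbols came from RefSeq (GRCr8) and matched 14009 of 14554 genes.

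Counts were scaled by TMM (factors 0.859 to 1.07) and fitted in 1 edgeR 4.0.16 quasi-likelihood model of 10 groups in R 4.3.3, with 15 comparisons. A filter of 10 counts in at least 1 library removed 0 genes. FDR is Benjamini-Hochberg over all genes, with 0.01 as the threshold, 1 of those the authors used, and 0.1 as an alternative. SE is the log2 fold change divided by the root of F. DESeq2 1.42.0, other scaling, filters and samples, and leaving out each library were alternatives. The edgeR step was tested on simulated data. No 2 libraries of a group agreed within sampling noise (180 pairs). The total counts give at least 44 counts for each member in each library, and intervals cover these cultures only.

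The members and lists were chosen with earlier results of these data known. All 8 members were named. From each list up to 3 genes with the largest called increases and decreases per comparison were eligible, and for Slc31a1, Mt1 and Slc30a1 the 3 genes of highest Pearson r over group means. Fkbp15 was named for its position. Promoters came from RefSeq and matched 8 of 8 members.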

Additional observations from a re-analysis of the deposited data

Results flagged for a closer look

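In 80 sets of values (8 genes in 10 groups), 8 had 1 library whose gap to the nearest other was large for the range of its group, where about 4 would be flagged by chance (1 in 20). Library 1 of DMSO1 at 24 h was high for 2 genes, Atp7a at 66.1 CPM (next 45.1) and Slc30a1 at 56.3 CPM (next 42.3). Library 4 of Dox at 6 h had Mt1 at 24.7 CPM, where the next was 11.8 CPM. Mt1 was also high in library 1 of DMSO2 at 24 h, at 21.1 CPM (next 18.6), and low in library 7 of Ace at 24 h, at 18.6 CPM (next 27.5). Atp7a was low in library 7 of DMSO2 at 6 h, at 20.2 CPM (next 27.2). Mtf1 was high in library 4 of 5FU at 24 h, at 35.7 CPM (next 31.5), and Slc30a1 in library 4 of Ace at 6 h, at 55.2 CPM (next 52.2).

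Effects that differed between 6 and 24 h were those of 5FU on Slc30a1 (-0.42 on the log2 scale, edgeR FDR = 0.000522) and of Dox on Slc31a2 (1.19, edgeR FDR = 5.34e-17), Atox1 (0.73, edgeR FDR = 3.58e-10), Mt1 (-1.84, edgeR FDR = 8.91e-11) and Slc30a1 (1.82, edgeR FDR = 2.46e-25).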

How the results depend on the processing

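No paired analysis was possible because the columns carry no replicate numbers. No called change of a member changed its sign under any alternative, and neither the DESeq2 Wald test, DESeq2 size factors nor either filter moved a count of called members by over 1.5 times. With library size as the only scaling the count was 3 in 5FU at 6 h, 1 between the vehicles at 6 h and 2 for the change of the 5FU effect with time. That scaling moved the median of all genes to -0.15 in Dox at 6 h and to 0.27 in the change of the Dox effect with time. With only the compared groups in the fit, 0 members were called between the vehicles at 6 h and 1, Mt1, at 24 h. At an FDR below 0.1 the vehicles at 24 h had 2 calls, the controls over time 4 and the 5FU effect over time 4. A log2 change of at least 1 beside the FDR left 2 in 5FU at each time, 0 in Ace at each time, 1 in Dox at 6 h, 0 between the vehicles at 6 h, in the controls over time, in the 5FU effect over time and between the Ace and 5FU effects, and 4 between Dox and Ace. The same limit left 5 in Dox at 24 h, and 4 in the Dox effect over time and between the Dox and 5FU effects. These counts, and that between Dox and Ace, include Slc31a1, and nothing is read from them. Leaving out 1 library gave 1 to 2 calls between the vehicles at 6 h and 1 to 3 for the 5FU effect over time. Shares of all genes under these alternatives are not given, so the counts show only how calls of members moved and not how they compare with all genes. Depth did not limit the members, since the lowest count was 44.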
